A study of Homo sapiens and Mus musculus with 16 samples.

Results

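miR-191 and miR-425 are microRNAs (miRNAs) cut from neighbouring hairpins within the gene DALRD3. They were picked by name, as the rows hsa-miR-191 and hsa-miR-425 of the human tables and their mmu- counterparts of the mouse table without the star strands, together with DALRD3 in the mRNA table. They make up 2 of the 385 human miRNAs listed in either SK-HEP-1 table, 2 of the 305 mouse miRNAs and 1 of the 22314 genes. The comparison asked whether the miRNAs of 1 cluster and their host move together when liver cancer cells receive a fungal extract.

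Cells of the human hepatocarcinoma line SK-HEP-1 and of the murine liver line BNL CL.2 were given DMSO alone (U, untreated) or 0.5 mg/ml AcFBE, an ethanol extract of fruiting bodies of Antrodia cinnamomea (T, treated), for 2 or 4 h, so that 2U, 2T, 4U and 4T name the conditions. All cultures received DMSO, and the dose had been chosen as one toxic to SK-HEP-1. In the study's longer viability assay it also lowered the survival of BNL CL.2, though less than that of SK-HEP-1. Small RNA of SK-HEP-1 was sequenced in 2 batches, on a SOLiD 3 and on a SOLiD 5500xl sequencer, with 1 library per condition and batch. Small RNA of BNL CL.2 gave 1 library per condition, which the labels and the study's library statistics place on the SOLiD 5500xl and its methods text on the SOLiD 3. The polyadenylated RNA of SK-HEP-1 gave 1 library per condition, labelled SOLiD 3, and the series holds no mRNA library of BNL CL.2.

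Between 7131622 and 21069453 quality reads stood behind each SK-HEP-1 library and between 5933784 and 10561902 behind each of BNL CL.2. The miRNA counts in the deposited tables summed to 173239 to 881237 and 670185 to 1118579 per library. These sums are not the study's own totals of reads mapped to miRBase, most of which are larger. A count of 0, where no read was seen, allows up to 3 reads, or 0.142 to 0.506 reads per 1000000 quality reads (RPM) over the 12 libraries. No count of 1 is listed, so a listed 0 can also stand for 1 read, and the limit is then higher. The hepatocyte label of SK-HEP-1 was checked against 8 mRNA markers. ALB, APOA1, APOB, TTR, HNF4A and TF were listed at 0 in all 4 libraries, AFP reached 0.621 FPKM and SERPINA1 was at 8.59 to 18.7 FPKM. All 5 endothelial markers and both blood markers were also listed at 0, while VIM, a mesenchymal filament gene, was at 6465 to 13625 FPKM and KRT18, an epithelial keratin, at 4581 to 6254 FPKM. Of the other epithelial and mesenchymal markers CDH1 was listed at 0, EPCAM and COL1A1 stayed below 1 FPKM and FN1 was at 4.92 to 14.5 FPKM. The liver miRNA miR-122 did not exceed 9.82 RPM in SK-HEP-1 and the blood miRNA miR-223 0.390 RPM. Most of the defining hepatocyte markers were thus listed at 0. The mRNA table gives no read counts and a listed 0 can also be a failed estimate, since MCM7, a replication gene, was listed at 0 in both 2 h libraries and at 333 and 320 FPKM at 4 h, and PRKAR2A, a subunit of protein kinase A, at 0 in all 4.

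A miRNA hairpin that lies in an intron can be made from the same primary transcript as the host mRNA, after the enzyme DROSHA cuts the hairpin out and DICER1 releases the mature strands. Hairpins of 1 cluster can thus share a transcript, while each mature miRNA is then loaded, kept or degraded on its own. miR-191 is abundant in many cell types and has been reported as raised in liver cancer, and miR-425 is its neighbour on the same strand. The host encodes a protein with a DALR anticodon-binding domain, a partner of METTL2 in the methylation of certain arginine tRNAs.

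In the GENCODE annotation of GRCh37, the build of the deposited files, DALRD3 covers chr3:49052921-49059726 on the minus strand. MIR191 lies at chr3:49058051-49058142 and MIR425 at chr3:49057581-49057667, both on the same strand and 383 bases apart, with MIR191 first in the direction of transcription. Of the 15 annotated DALRD3 transcripts, 4 start upstream of the hairpins and hold both in their first intron, and in none does an exon overlap a hairpin. The other 11, the canonical transcript among them, contain neither. The canonical transcript starts 1567 bases downstream of MIR425. The deposited value is 1 per gene, and the transcripts in the authors' annotation are not given in the sources used here. It may thus sum transcripts that span the hairpins with transcripts that do not.

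Genes on the opposite strand overlap the host at both ends. NDUFAF3, an assembly factor of mitochondrial complex I, shares 1835 bases with DALRD3, and its longest transcript holds MIR191 in its first intron in antisense. WDR6, a WD-repeat protein, shares 466 bases at the other end. Whether reads were counted by strand is not given in the sources used here, and without strand the reads of these stretches cannot be assigned to 1 of the genes. The FPKM of DALRD3 is therefore uncertain to that extent.

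**Figure D1:**
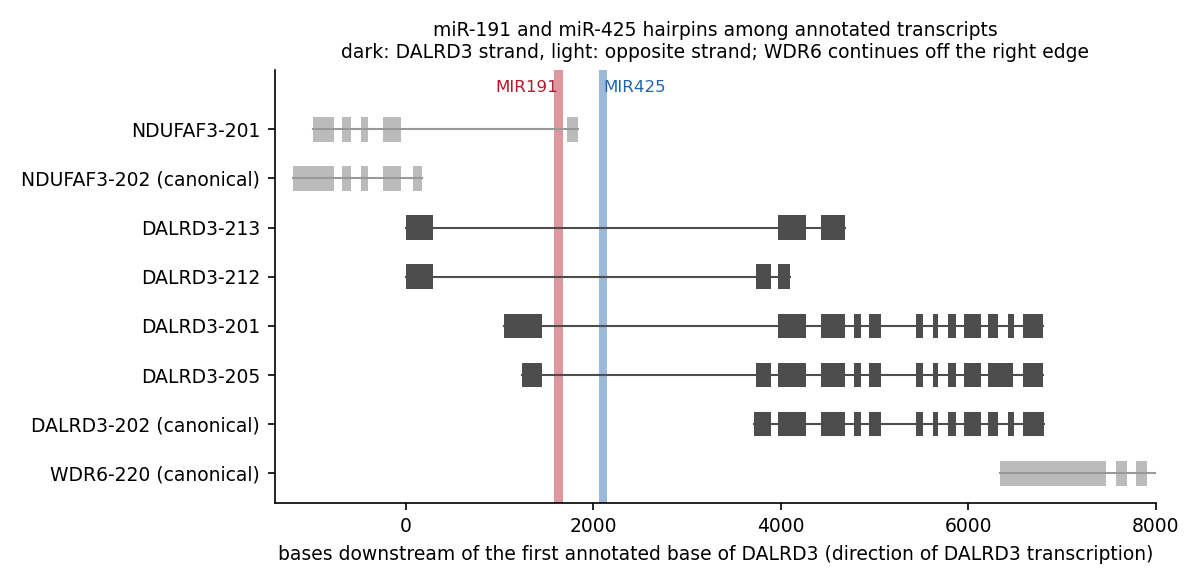
Annotated transcripts (rows) along the host gene, in bases downstream of its first annotated base, with exons as boxes, introns as lines and the hairpins as vertical bands. The 4 DALRD3 transcripts that start upstream carry both hairpins in their first intron, and the canonical transcript starts downstream of both.

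The mature strands are shown because the counts below are counts of these molecules, and the seed, bases 2 to 8 in capitals, is the stretch that pairs with target mRNAs. The sequences are those of RefSeq (GRCh38.p14 table, 3 of 4 mature names matched), and their positions come from a match to GRCh37, each on the minus strand. hsa-miR-191-5p, the miR-191 of the tables, lies at chr3:49058105-49058127, and hsa-miR-191-3p, its star strand, at chr3:49058064-49058085. hsa-miR-425-3p, the star strand of miR-425, lies at chr3:49057592-49057613, and hsa-miR-425-5p is the miR-425 of the tables.
hsa-miR-191-5p: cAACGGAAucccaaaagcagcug
hsa-miR-191-3p: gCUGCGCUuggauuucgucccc
hsa-miR-425-3p: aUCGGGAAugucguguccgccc
The 3 seeds differ from each other, and 0 other mature miRNAs of that table carry the seed of miR-191-5p.

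In untreated SK-HEP-1 cells at 2 h, miR-191 was the more abundant of the pair in both batches, and in all 6 other SK-HEP-1 libraries miR-425 was. In the SOLiD 3 batch, the 2U, 2T, 4U and 4T libraries held 373, 11.3, 27.8 and 47.4 RPM of miR-191. In the SOLiD 5500xl batch they held 118, 0.529, 27.1 and 2.83 RPM. The untreated 2 h library was thus the highest and the treated 2 h library the lowest in both batches, and the value of 0.529 RPM rests on 9 reads.

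For miR-425 the same libraries held 242, 98.5, 349 and 179.8 RPM in the SOLiD 3 batch. In the SOLiD 5500xl batch its levels were 23.2, 13.1, 50.04 and 24.1 RPM in that order. Here the untreated 4 h library was the highest and the treated 2 h library the lowest in both batches. The batches differed more for miR-425 than the conditions did, with each SOLiD 5500xl level below every SOLiD 3 level. Reads behind these values numbered 223 to 4111, so that counting error was small beside the difference between batches.

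In rank among the miRNAs with a count above 0, miR-191 went from place 28 in 2U to 83 in 2T of the SOLiD 3 batch and from 34 to 165 in the other. miR-425 went from place 42 to 27 and from 63 to 58, so it moved up while its RPM went down.

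The level of DALRD3, in FPKM (fragments per kilobase of transcript and 1000000 mapped fragments), was 73.2, 24.3, 45.5 and 21.2 in the 2U, 2T, 4U and 4T libraries. Both treated libraries lay below both untreated ones. Among genes above 0 it held ranks 750, 1351, 1059 and 1453 in that order, at percentiles 84.0 to 92.98, so it was among the more highly expressed genes throughout. Genes above 0 numbered 10691, 8454, 9550 and 9773 in the same order. The study's own gene counts equal these in 4U and 4T but not in 2U and 2T. The reason was not tested, and the 2 h values of DALRD3 carry this uncertainty.

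**Figure D2:**
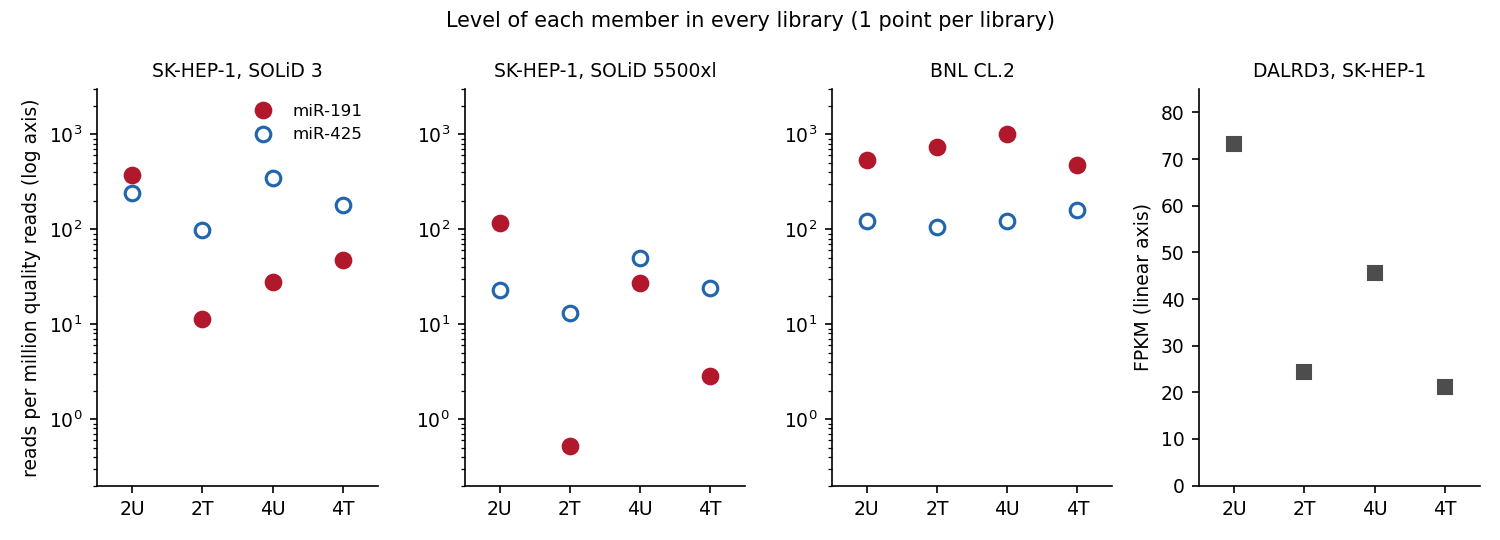
Level of miR-191 (filled) and miR-425 (open) in RPM on a log axis for each SK-HEP-1 batch and BNL CL.2, and of DALRD3 in FPKM on a linear axis, with 1 point per library. In SK-HEP-1, miR-191 runs from 0.529 to 373 RPM and lies above miR-425 in the 2U libraries only, whereas in BNL CL.2 it lies above miR-425 in all 4.

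The star strands add little to these levels. In SK-HEP-1, miR-191* was listed above 0 in 1 library, with 10 reads (0.849 RPM) in 4U of the SOLiD 3 batch, and it is not listed in the SOLiD 5500xl table. miR-425* had 2 to 44 reads in each of the 8 libraries, or 0.260 to 3.73 RPM. Its log2 fold change over both times was -1.2 (standard error 0.86, adjusted p = 0.265 in edgeR with Benjamini-Hochberg correction).

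Treated and untreated cells were compared first. miR-191 was lower in the treated library in 3 of 4 pairs of the same batch and time and miR-425 in 4 of 4, and DALRD3 was lower at both times. In bulk RNA, less of a molecule per cell and fewer cells that hold it cannot be told apart. The sizes differed. At 2 h miR-191 was 33.0-fold lower in the SOLiD 3 batch and 223-fold lower in the SOLiD 5500xl batch, while miR-425 was 2.45-fold and 1.77-fold lower.

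The log2 ratio of 2T to 2U for miR-191 was -5.04 in the SOLiD 3 batch (95% interval of counting error -5.37 to -4.73) and -7.80 in the SOLiD 5500xl batch (-8.93 to -6.87). At 4 h it was 0.77 (0.56 to 0.98) and -3.26 (-3.76 to -2.79), so the batches went opposite ways at that time. The mean over the 4 pairs, 2 time points in each of 2 batches, was -3.83 ± 3.59 (SD, n = 4). For miR-425 the 2 h ratios were -1.29 and -0.82, and those at 4 h -0.96 and -1.05, with a mean of -1.03 ± 0.20 (SD, n = 4). The difference for miR-425 was the smaller on average and nearly alike in each pair of libraries, while that for miR-191 ran from -7.80 to 0.77.

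DALRD3 had a log2 ratio of -1.59 at 2 h, which left 33.2% of the untreated FPKM, and of -1.10 at 4 h, which left 46.7%. At 2 h, 287 of 4325 genes with at least 1 FPKM in both libraries had a lower ratio than DALRD3 (percentile 6.64), and at 4 h 1047 of 4779 (percentile 21.9). The medians over those genes were -0.03 and -0.31. Genes at or below 50% of untreated made up 17.2% at 2 h and 25% at 4 h, and DALRD3 was among them both times. It was 1 of 408 genes that were so at both times, which is 10.0% of the genes that reached 1 FPKM in every library. With 1 library per condition there is no replicate check on the mRNA, and it is not known which miRNA batch the mRNA cultures correspond to.

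**Figure D3:**
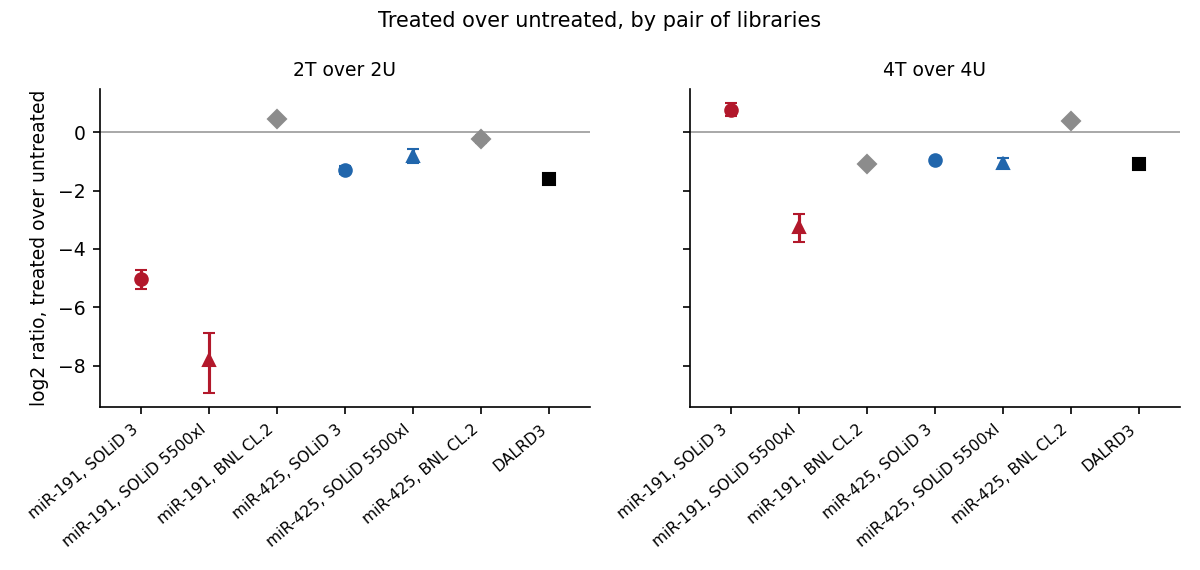
Log2 ratio of treated over untreated for miR-191 (red), miR-425 (blue) and DALRD3 (black) in SK-HEP-1, and for the miRNAs in BNL CL.2 (grey), with 95% intervals of counting error for miRNAs and none for DALRD3. At 2 h miR-191 lies at -5.04 and -7.80 in SK-HEP-1, below miR-425 and DALRD3, and at 4 h its batches lie on opposite sides of 0.

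Neither miRNA passed an adjusted p of 0.05 among the 196 tested. Over both times the log2 fold change of miR-191 was -3.94 (standard error 1.56) with an unadjusted p of 0.0365 and an adjusted p of 0.0913 in the quasi-likelihood test of edgeR with Benjamini-Hochberg correction. For miR-425 it was -1.04 (standard error 0.38), with 0.0257 and 0.0804 from the same test. In this comparison 0.0% of the 196 miRNAs passed, as in the other 5 comparisons below, and 46.4% were lower at an unadjusted p under 0.05, both members among them. The same comparison gave 95 calls with DESeq2 and 52 with limma, with miR-191 among the calls of both tools and miR-425 among those of DESeq2.

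The median of all 196 log2 fold changes was -1.37, and 98.0% of the miRNAs were lower in treated cells. Relative to that median miR-191 was at -2.57 and miR-425 at 0.34. The sign of miR-425 itself depends on what a read is counted against. With the sum of the miRNA counts as the scale the median moved to 0.10, miR-191 stayed negative at -2.38 and miR-425 turned to 0.46. With trimmed-mean (TMM) factors the median was -0.099 and the values were -2.60 and 0.26. Relative to the median, miR-191 was at -2.48 and -2.50 under these scalings and miR-425 at 0.36 under both. In these libraries the listed miRNA counts made up 2.65 to 12.4% of the quality reads in untreated SK-HEP-1 cells and 1.23 to 2.91% in treated ones, and the part of this share in the values of miR-425 was not tested.

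At 2 h alone, edgeR gave miR-191 a log2 fold change of -6.17 (standard error 1.39, unadjusted p = 0.00270, adjusted p = 0.212 with Benjamini-Hochberg correction, lower in 2 of 2 pairs) and miR-425 one of -1.07 (standard error 0.64, adjusted p = 0.285). At an unadjusted p under 0.05, 22.4% of the 196 miRNAs were lower at 2 h, miR-191 among them and miR-425 not. DESeq2 made 6 calls here and limma 3, each including miR-191. For miRNAs with at least 10 RPM in either 2 h library, ratios were taken where both counts were above 0. Of these, 0 of 121 were lower than that of miR-191 in the SOLiD 3 batch and 2 of 94 in the other. A miRNA listed at 0 in 1 of the libraries was left out, so the ranking does not cover it.

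At 4 h the values were -1.53 (standard error 1.23, adjusted p = 0.406 by edgeR with Benjamini-Hochberg correction) for miR-191 and -1.01 (standard error 0.64, adjusted p = 0.337) for miR-425. The value of miR-191 rests on 1 library, since without 4U of the SOLiD 5500xl batch it was 0.47. Of the 196 miRNAs, 25 had an unadjusted p under 0.05 in edgeR, without either member, and DESeq2 made 6 calls and limma 0. The host was at -1.10 at this time, beside which miR-425 turned to 0.28 and 0.26 when scaled to the miRNA total and by TMM.

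The ratio of miR-191 to miR-425 within a library does not depend on the scaling. Of the reads of the pair in the SOLiD 3 batch, miR-191 made up 60.7% in 2U (95% Wilson interval 59.2 to 62.1) and 10.3% in 2T (8.42 to 12.5). At 4 h it made up 7.37% in 4U (6.64 to 8.17) and 20.9% in 4T (19.2 to 22.7). In the SOLiD 5500xl batch its share was 83.6% in 2U (82.2 to 84.9) against 3.88% in 2T (2.05 to 7.21), and 35.2% in 4U (32.8 to 37.6) against 10.5% in 4T (7.83 to 14.0). None of the intervals of 2U overlapped that of any other SK-HEP-1 library, and they cover counting error only.

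Treated minus untreated, the log2 ratio of miR-191 to miR-425 differed by -3.75 and -6.98 at 2 h, and by 1.73 and -2.20 at 4 h, in the SOLiD 3 and SOLiD 5500xl batches. The mean was -2.80 ± 3.62 (SD, n = 4 pairs), negative in 3 of 4, with p = 0.25 in a two-sided exact sign-flip permutation test. With 4 pairs this exact test cannot go below p = 0.13, and it treats the 2 time points of a batch as replicates. At 2 h the pair did not keep its ratio in either batch, by far more than counting error, while over all 4 pairs the mean difference was smaller than the spread between pairs.

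The untreated level of miR-191 itself moved between the times, so that its treated-to-untreated ratio depends on which untreated library is used. In 4U it was at 7.45% of its 2U level in the SOLiD 3 batch and at 23.0% in the SOLiD 5500xl batch. miR-425 was at 144% and 216% of its 2U level. DALRD3 went from 73.2 to 45.5 FPKM.

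As log2 ratios of 4U to 2U these values were -3.75 and -2.12 for miR-191, 0.53 and 1.11 for miR-425 and -0.69 for DALRD3. The cluster members thus went opposite ways in both batches, and the host went the way of miR-191. The medians of miRNAs with at least 10 RPM in either library and counts above 0 in both were -0.55 and 0.13. That of genes was 0.06, with 774 of 4628 genes below DALRD3. In edgeR the log2 fold change of miR-191 was -2.51 (standard error 1.16, adjusted p = 0.752 with Benjamini-Hochberg correction) and that of miR-425 was 0.81 (standard error 0.64, adjusted p = 0.867). An unadjusted p under 0.05 was found for 10 miRNAs, without either member, and DESeq2 made 4 calls and limma 0.

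In treated cells both miRNAs were higher at 4 h than at 2 h. The log2 ratio of 4T to 2T was 2.07 and 2.42 for miR-191 and 0.87 and 0.88 for miR-425. DALRD3 was at -0.19, where the median of genes was -0.08. This comparison was added after the data were seen. Its log2 fold changes in edgeR were 2.13 (standard error 1.15) and 0.87 (standard error 0.64), each with an adjusted p of 0.993 after Benjamini-Hochberg correction, and 3 of the 196 miRNAs had an unadjusted p under 0.05, without either member. DESeq2 and limma made 0 calls.

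**Figure D4:**
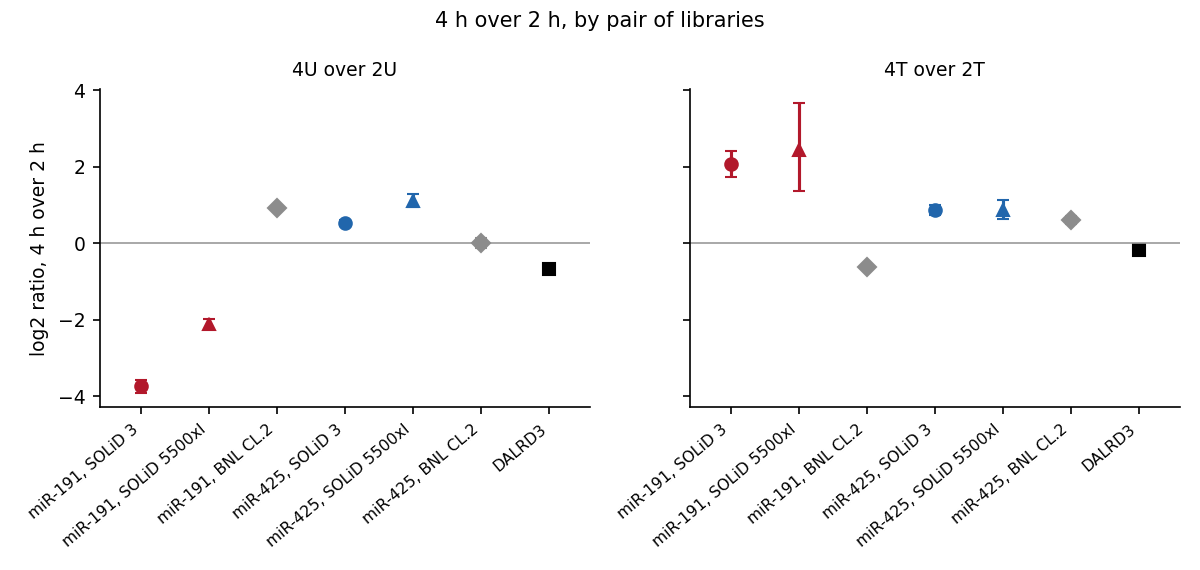
Log2 ratio of 4 h over 2 h in untreated (left) and treated (right) cells for miR-191 (red), miR-425 (blue) and DALRD3 (black) in SK-HEP-1 and for the miRNAs in BNL CL.2 (grey), with 95% intervals of counting error for miRNAs. In untreated SK-HEP-1 cells miR-191 lies at -3.75 and -2.12 and miR-425 at 0.53 and 1.11, and in treated cells both lie above 0.

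The treatment effect at 4 h was compared with that at 2 h in 1 model. For miR-191 the difference was 4.64 (standard error 1.63) on the log2 scale, with an unadjusted p of 0.0236 and an adjusted p of 0.954 by edgeR with Benjamini-Hochberg correction. For miR-425 it was 0.06 (standard error 0.89, adjusted p = 0.972). Unadjusted p-values under 0.05 were found for 7 miRNAs, miR-191 among them, and DESeq2 and limma made 0 calls. The difference for miR-191 was thus large in size and did not hold after adjustment.

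Direction was then read across the 3 members, separately by kind of comparison because treatment and time comparisons share libraries, and with the single DALRD3 value set beside both batches. In the 4 treatment pairs, miR-425 and DALRD3 had the same sign in 4, miR-191 and miR-425 in 3, and all members in 3. The exception was the 4 h pair of the SOLiD 3 batch, the sequencer that the mRNA labels give. In the 4 time comparisons, miR-425 and DALRD3 had the same sign in 0, miR-191 and miR-425 in 2, and all members in 0. With 98.0% of all tested miRNAs lower under treatment, a shared sign there is what most pairs of miRNAs would have, and the signs for miR-425 turn with the scaling to miRNA counts, as given above.

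Across the 8 SK-HEP-1 libraries the correlation of log2(RPM + 1) between miR-191 and miR-425 was r = 0.58, and the libraries share batch, depth and treatment, so it is a description. By this measure miR-425 ranked 95 among the 196 tested miRNAs in likeness to miR-191. The closest to miR-191 were miR-100 (r = 0.88), miR-21 (0.86) and miR-92b (0.86). miR-21, a widely expressed miRNA that is often raised in tumours, was likewise lower in 2T than in 2U, at 64.6 against 797 RPM in the SOLiD 3 batch and at 0.529 against 1099 RPM in the SOLiD 5500xl batch, where it too had 9 reads. Its untreated 4 h libraries, with 91.2 and 27.3 RPM, were low as well. miR-100 went from 24654 to 2943 RPM and from 2720 to 277.0 RPM at 2 h. miR-92b, at 11.4, 5.20, 11.8 and 7.08 RPM in 2U, 2T, 4U and 4T of the SOLiD 3 batch and at 7.499, 3.00, 7.43 and 3.898 RPM in the other, was much the same in both untreated libraries of a batch, unlike miR-191.

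The closest to miR-425 were miR-29a (r = 0.99), miR-1180 (0.96) and miR-339-5p (0.96). miR-29a, which targets collagen and other matrix mRNAs, was at 4464, 1349, 7371 and 3027 RPM in 2U, 2T, 4U and 4T of the SOLiD 3 batch, the same order of conditions as miR-425. In the SOLiD 5500xl batch it was at 451, 320, 1237 and 446 RPM, again highest in 4U and lowest in 2T. miR-1180 had far fewer reads, at 1.28 to 20.8 RPM, while miR-339-5p, at 20.2 to 213 RPM, was nearer to the level of miR-425.

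The difference within the pair was set beside that within other miRNA clusters, 38 pairs of tested miRNAs in 12 clusters, which were listed with results of these data known. Pairs of 1 cluster share members and are not independent. At 2 h the log2 fold changes of miR-191 and miR-425 differed by 5.10, while the other pairs differed by 0.07 to 3.65 with a median of 1.03, so 0 of 38 differed more. From 2U to 4U the difference was 3.32 and 4 of 38 were larger. At 4 h it was 0.52 and 28 were larger, and from 2T to 4T it was 1.26 and 13 were larger.

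Among the other clusters, the next largest difference at 2 h was that of miR-500a and miR-502-3p (3.65), followed by miR-221 and miR-222 (3.31). Several clusters had members that moved almost alike at 2 h, such as miR-23a and miR-27a, which differed by 0.07. Some mature sequences, such as let-7a and miR-92a, are also made from hairpins elsewhere, and their reads cannot be assigned to 1 cluster.

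**Figure D5:**
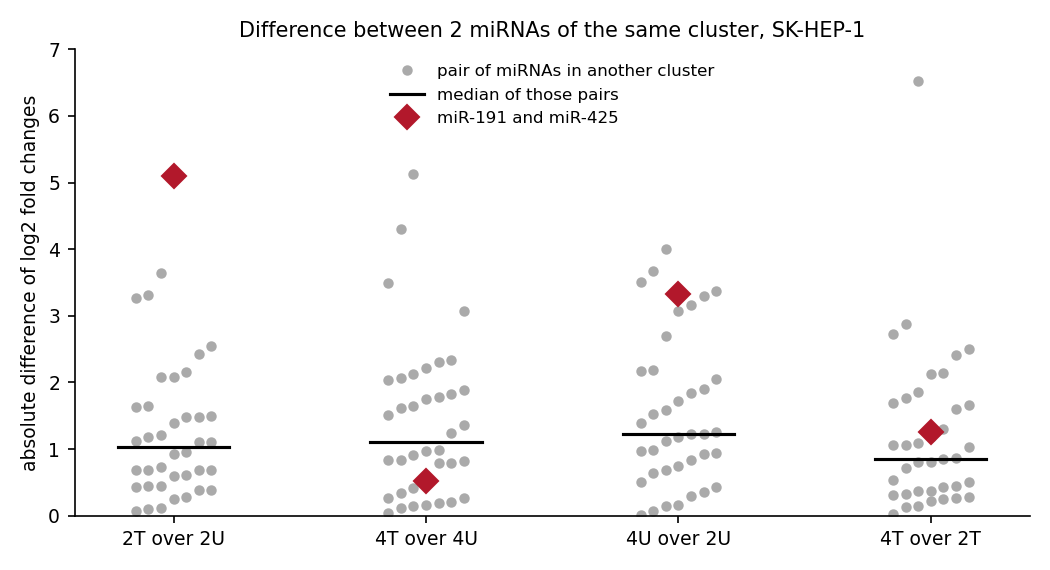
Absolute difference between the log2 fold changes of 2 miRNAs of the same cluster in SK-HEP-1, for miR-191 and miR-425 (diamond) and 38 pairs in 12 other clusters (grey points, bar at their median). The diamond lies above all points at 2 h, at 5.10, and below the median of 1.11 in 4T over 4U.

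In BNL CL.2 the mouse miRNAs were abundant in every library. mmu-miR-191 was at 535, 731, 1011 and 476 RPM and mmu-miR-425 at 123.5, 105.9, 123.3 and 160.8 RPM, each given for 2U, 2T, 4U and 4T. The highest level was that of 4U for mmu-miR-191 and 4T for mmu-miR-425. mmu-miR-191 took 74.7 to 89.1% of the reads of the pair, against at most 83.6% in SK-HEP-1, and it held ranks 16 to 20 among the mouse miRNAs.

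Treated over untreated, mmu-miR-191 had log2 ratios of 0.45 at 2 h (95% interval of counting error 0.39 to 0.51) and -1.09 at 4 h (-1.14 to -1.03), and mmu-miR-425 of -0.22 (-0.36 to -0.09) and 0.38 (0.27 to 0.50). The members went opposite ways at both times. From 2U to 4U, mmu-miR-191 had a log2 ratio of 0.92 and mmu-miR-425 one of -0.00, and from 2T to 4T they had -0.62 and 0.60. There is 1 library per condition, so the spread between replicates is unknown.

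The treatment effects in the cell lines differed by -3.51 for miR-191, the mean of 4 SK-HEP-1 pairs being -3.83 and that of 2 BNL CL.2 pairs -0.32 (exact permutation of the labels of cell line, two-sided, p = 0.333). For miR-425 the difference was -1.11, with means of -1.03 and 0.08 (exact permutation test, p = 0.0667, the smallest that 15 assignments allow). The BNL CL.2 pairs are the 2 h and the 4 h pair of 1 set of libraries, and those of SK-HEP-1 are both times in each batch. These tests thus treat the times as replicates. All 4 SK-HEP-1 pairs lay below both BNL CL.2 pairs for miR-425, except that with the sum of the miRNA counts as the scale the difference turned to 0.29. With the SK-HEP-1 pairs of the SOLiD 5500xl batch alone, the sequencer that the labels give for BNL CL.2, the differences were -5.21 for miR-191 and -1.02 for miR-425, a comparison added after the data were seen. Each had p = 0.333 in the exact permutation test, the smallest that 6 assignments allow. Cell line and species cannot be told apart here.

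Most measured genes around the host were lower in treated cells too. Of 13 listed neighbours at 3p21.31, 7 had at least 1 FPKM in both 2 h libraries, 6 of which were lower, 1 at or below 50%, with a median log2 ratio of -0.38. Over all genes so measured 51.4% were lower and 17.2% at or below 50%. At 4 h 10 were measured, 9 were lower and 5 were at or below 50%, with a median of -1.08, against 60.6% and 25% of all genes. DALRD3, at -1.59 and -1.10, was lower than each of the 7 at 2 h, while 5 of the 10 had a lower ratio than DALRD3 at 4 h.

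NDUFAF3, which overlaps the host in antisense, was at 267, 162, 282 and 145 FPKM in 2U, 2T, 4U and 4T. WDR6, which overlaps its other end, was at 8.14, 7.79, 11.8 and 4.36 FPKM. Under treatment both were lower at 2 and 4 h, as DALRD3 was, with log2 ratios of -0.72 and -0.96 for NDUFAF3 and -0.06 and -1.44 for WDR6. From 2U to 4U DALRD3 was lower, while NDUFAF3 was higher by 0.08 and WDR6 by 0.54 on the log2 scale. Whether reads of these genes enter the value of DALRD3 was not tested. P4HTM, a transmembrane prolyl hydroxylase, went from 10.3 to 3.81 FPKM at 2 h and from 6.67 to 1.41 at 4 h. QARS, the glutaminyl-tRNA synthetase, went from 97.4 to 54.4 and from 106.8 to 45.4 FPKM, and IMPDH2, an enzyme of guanine nucleotide synthesis, from 462 to 418 and from 516 to 438 FPKM.

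Other hosts of intronic miRNAs were set beside DALRD3. Of 16 listed, 5 had at least 1 FPKM in both 2 h libraries, 1 of which was lower and 2 at least doubled, with a median of 0.83. Over all genes so measured, 2223 of 4325 were lower and 757 at least doubled, with a median of -0.03. At 4 h 7 were measured, 5 were lower and 2 were at or below 50%, with a median of -0.54. These are few genes, and the 4 h counts lie near the shares of all genes given above. CTDSP2, a phosphatase gene that hosts miR-26a-2, went from 6.02 to 2.90 FPKM at 2 h and from 6.23 to 2.09 at 4 h. COPZ1, a coatomer subunit that hosts miR-148b, went from 56.6 to 100.7 FPKM at 2 h and from 105.0 to 107.6 at 4 h. MCM7, the host of the miR-106b cluster, had 333 and 320 FPKM at 4 h without and with the extract.

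Genes that others have reported as targets were mostly at or near 0. Of 7 listed for miR-191, 1 had at least 1 FPKM in both libraries at 2 h and 2 at 4 h. BASP1, a membrane-bound signalling protein, was at 34.9, 15.4, 20.1 and 13.0 FPKM in 2U, 2T, 4U and 4T, and TIMP3, an inhibitor of metalloproteinases, at 2.40, 0.715, 2.19 and 1.28. EGR1, an immediate early transcription factor, had 18.6 and 39.8 FPKM in the untreated libraries of 2 and 4 h, and in the treated ones it was listed at 0 and 0.810. The treated values of EGR1, and that of TIMP3 at 2 h, lie below 1 FPKM. CDK6, a cell cycle kinase, was below 1 FPKM throughout and higher in treated cells, at 0.336 against 0.0795 FPKM at 2 h and 0.382 against 0.306 at 4 h. For miR-425, 1 of 4 was measured at each time, CCND1, the cyclin D1 gene, at 22.03, 25.6, 20.9 and 18.4 FPKM.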

How the data were processed

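The data were 12 small RNA libraries, 8 of SK-HEP-1 and 4 of BNL CL.2, and 4 mRNA libraries of SK-HEP-1. Per the study's methods and the submitters' processing notes (cutadapt, Bowtie 0.12.7), the authors deposited whole-number counts per known miRNA without normalization, with no count of 1 listed, and FPKM per gene from TopHat and Cufflinks on hg19. The authors' choice of tools can affect low counts and genes that overlap on opposite strands.

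Each count was divided by its library's quality reads, taken from the study's library statistics, to give RPM, since scaling to the miRNA total removes a change shared by all miRNAs. The 196 of 263 miRNAs listed in both SK-HEP-1 tables with a mean of at least 1 RPM were tested in R 4.3.3 by the quasi-likelihood method of edgeR 4.0.16 (terms batch and time, or 1 mean per condition and batch, with Benjamini-Hochberg correction and a threshold of 0.05). DESeq2 1.42.0, limma 3.58.1 on log2(RPM + 1), other scalings, no filter, no replicate block, the treated-untreated pair as block and leaving out each library were the alternatives. The sequencing batch, a repeated culture per the study's methods, was kept as replicate block, and deviations of the libraries of 1 batch correlated at 0.423 to 0.715 over 6 pairs of conditions. Single pairs used ratios without pseudocount and exact binomial intervals, and shares Wilson intervals, which cover counting error only, because reads that carry no molecular identifiers do not each stand for 1 molecule. mRNA had 1 library per condition and was not tested, and ratios and percentiles used genes with at least 1 FPKM in both libraries. The number of reads behind an FPKM value is not known. In fits with 1 mean per condition and the batch as block, the level of each batch is removed. The p-values then measure how far the batches differ in their changes between conditions. Those of the comparison over both times, and of the permutation tests, also include differences in the treatment effect between 2 and 4 h. Python 3.11.15 with pandas 2.3.3 and scipy 1.17.1 was used for other steps and matplotlib 3.10.9 for figures, and the tests were tried on simulated data.

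The members and gene lists were chosen with earlier results of these data known. Named were the members, their star strands, the 3 miRNAs most correlated with each, members of other clusters, neighbours of the host at 3p21.31, other host genes and reported targets, of which some are given as examples, chosen after their values were seen.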

Additional observations from a re-analysis of the deposited data

Results flagged for a closer look

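miR-191 had log2 ratios of opposite sign in the cell lines in 3 comparisons, and none of these differences was tested, since each BNL CL.2 condition has 1 library. In 2T over 2U the log2 ratios were -5.04 and -7.80 in SK-HEP-1 and 0.45 in BNL CL.2. In 4U over 2U they were -3.75 and -2.12 against 0.92, and in 4T over 2T they were 2.07 and 2.42 against -0.62. miR-425 did so in 2 comparisons, also not tested, with -0.96 and -1.05 against 0.38 in 4T over 4U, and 0.53 and 1.11 against -0.0022 in 4U over 2U, where the counting interval of the mouse value includes 0.

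Within SK-HEP-1, miR-191 went down from 2 to 4 h in both untreated pairs (-3.75 and -2.12) and up in both treated pairs (2.07 and 2.42). The model term for this difference was 4.64 on the log2 scale, with an adjusted p of 0.954 by edgeR with Benjamini-Hochberg correction. The groups held at most 2 libraries, too few to look for single libraries that stand apart.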

How the results depend on the processing

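Of 300 alternative values for 25 results, 265 were labelled unchanged. For fold changes and permutation tests this means the same direction and the same side of the threshold. The permutation tests cannot pass the threshold with so few pairs, so their side was fixed in advance. For the number of miRNAs past the threshold it means that the number stayed at 0. The tool decided whether miR-191 passed. Over both times it passed with DESeq2 (-3.97) and limma (-3.33), its adjusted p ranging from 0.00148 to 0.992 over the alternatives to edgeR's fit with Benjamini-Hochberg correction, and at 2 h with DESeq2 (-6.19) and limma (-5.60), the range being 6.37e-06 to 0.994. Over both times miR-425 passed with DESeq2 (-1.04) and with scaling to the reads left after the tRNA filter (-1.34), its adjusted p ranging from 0.00646 to 0.992. Scaled to the miRNA total and by TMM, in that order, miR-425 reversed to 0.46 and 0.26 over both times, 0.65 and 0.26 at 2 h, 0.28 and 0.26 at 4 h, and -0.37 and -0.0031 for the change at 4 h against 2 h, which was -0.12 with the tRNA filter scaling. Against BNL CL.2 it was 0.29 with the miRNA total. The number of miRNAs past the threshold over both times was 95 with DESeq2, 52 with limma, 100 with the tRNA filter scaling and 60 with the treated-untreated pair as block, in place of 0. It was 6 and 3 with DESeq2 and limma at 2 h, 6 with DESeq2 at 4 h and 4 with DESeq2 for 4U against 2U. Causes were not tested.

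With each library left out, miR-191 ran from -5.43 to -2.38 over both times, -7.68 to -5.15 at 2 h, -2.86 to 0.47 at 4 h, 3.32 to 6.999 for the change at 4 h against 2 h, -4.84 to -1.50 for 4U against 2U and 0.67 to 3.89 for 4T against 2T. miR-425 ran from -1.12 to -0.93, -1.31 to -0.80, -1.13 to -0.87, -0.21 to 0.31 (values of -0.21, -0.070 and -0.0083 reversed), 0.56 to 1.08 and 0.81 to 0.94 in the same order. The number of miRNAs past the threshold over both times was 0 to 1. Leaving out 1 pair, the change of the miR-191 to miR-425 ratio ran from -4.31 to -1.41 (-1.41 without the 2 h pair of SOLiD 5500xl), and the cell line difference from -5.05 to -2.19 for miR-191 and -1.18 to -1.02 for miR-425. Without the replicate block miR-191 was at -2.74 and miR-425 at -1.11 over both times, and the block changed no call of either. DALRD3 was at -1.55 and -1.06 at 2 and 4 h on log2(FPKM + 1) and at -1.62 and -0.80 scaled to the median gene, and its percentiles were 8.57 and 18.1 among genes above 0.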
